A study of Mus musculus with 1152 samples.

Results

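Cspg4, Cspg5, Ptprz1, Ncan, Bcan, Vcan, Matn4 and Tnr, 8 of the 46517 genes counted, encode proteoglycans and partner proteins of the matrix around neurons and glia. They were chosen by name, with earlier results of these data known, and none of them was used to sort wells into cell classes. Their RNA was followed through oligodendrocyte precursor cells (OPC), committed oligodendrocyte precursors (COP) and oligodendrocytes, and in fibroblasts and vessel cells of the same preparations.

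A chondroitin sulphate proteoglycan is a core protein carrying long sulphated sugar chains. Bcan (brevican), Ncan (neurocan) and Vcan (versican) are lecticans, secreted core proteins that bind hyaluronan at their amino-terminal end and tenascins such as Tnr (tenascin-R) at the other, and such complexes form the perineuronal nets that wrap many neurons. Cspg4 (NG2) and Cspg5 (neuroglycan C) span the cell membrane, Ptprz1 is a receptor tyrosine phosphatase that can carry chondroitin sulphate, and Matn4 (matrilin-4) is an adaptor protein of matrix filaments. NG2 is the textbook surface marker of OPC and is also made by pericytes, the mural cells that cover capillaries.

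Fluorescent single cells had been sorted from brains of adult C57BL/6 mice of both sexes, of a Pdgfra-H2BGFP line and a Tagl-CREERT2;Ai14 line, after digestion and capture of vascular fragments on beads with a CD31 antibody. The H2BGFP line marks nuclei of cells that use the Pdgfra locus, which OPC and fibroblasts both do, and the CREERT2 line carries a recombinase that acts after tamoxifen and the Ai14 reporter. Each well held a SMART-seq2 library, amplified from the full-length cDNA of a sorted cell. The labels give no line, animal or plate for a well, so the wells form 1 sample without a replicate check, and each difference given here is a description without a test.

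Of 1152 wells, in 3 sets of 384 named 1025s_182s, 600s_182s and 613s, 857 had at least 50000 reads and were kept. They held 50002 to 1451280 reads, with a median of 279874. A well entered a class when at least 3 of the markers of that class reached 50 CPM (counts of a gene per 1000000 reads of the well), and a well that passed several gates went to the class with the highest mean marker level. This gave 220 OPC wells, 88 COP wells, 317 oligodendrocyte wells, 96 fibroblast wells and 53 vessel wells. The 5 OPC gate markers summed to 3391 CPM in OPC wells and 567 CPM in COP wells. They summed to 138 CPM in oligodendrocyte wells and 43.2 CPM in vessel wells. In fibroblast wells they summed to 479 CPM, of which Pdgfra gave 431 CPM. The 5 fibroblast markers summed to 9009 CPM in fibroblast wells, against 790 CPM in vessel wells and 66.2 CPM in OPC wells. Set 600s_182s gave 179 of the OPC wells and 71 of the COP wells, while 1025s_182s gave 15 and 4. For the 8 genes values within sets are therefore given beside many of the pooled ones. Values of related genes are pooled only. Marker RNA of a second lineage was present in 230 kept wells. Set 600s_182s held 74 of the 80 OPC wells that also passed the oligodendrocyte gate, and 19 of the 34 fibroblast wells that also passed a gate of the oligodendrocyte lineage.

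**Figure D1:**
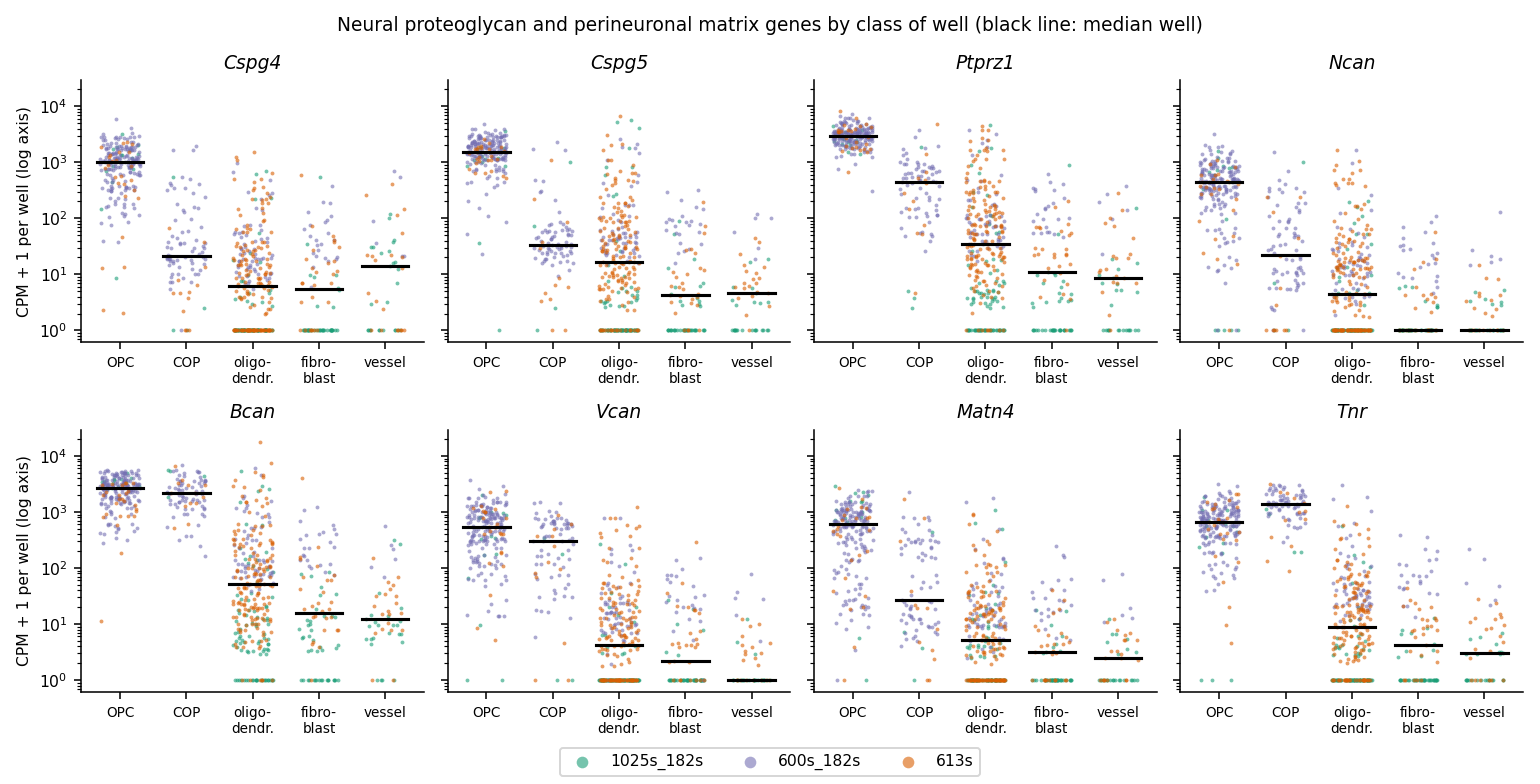
CPM + 1 of each of the 8 genes in single wells on a log axis, by class of well, with a black line at the median well and colours for the 3 sets of wells. All 8 genes lie high in OPC wells, only Bcan, Vcan and Tnr stay above 300 CPM in the median COP well besides Ptprz1, and the medians of fibroblast and vessel wells lie below 16 CPM.

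Most OPC wells carried most of the 8 genes at once. In 213 of the 220 OPC wells (96.8%) at least 6 of the 8 genes reached 100 CPM, and in 121 wells all 8 did. COP wells had a median of 4.5 of the 8 genes at that level, and 22 of 88 (25.0%) had 6 or more. No member reached 100 CPM in 162 of 317 oligodendrocyte wells, in 66 of 96 fibroblast wells and in 37 of 53 vessel wells.

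Levels of different genes were compared per kilobase of annotated exon, since a longer transcript yields more fragments. On that scale Bcan stood highest in OPC wells with 639 CPM per kb, then Ptprz1 with 217, Cspg5 with 156 and Matn4 with 136 CPM per kb. Cspg4 followed with 94.0, Ncan with 73.9, Tnr with 57.9 and Vcan with 47.0 CPM per kb. In COP wells Bcan still led with 587 CPM per kb, and Tnr stood next with 118 CPM per kb, ahead of Ptprz1 with 38.5 and Matn4 with 37.7 CPM per kb. Cspg4, the textbook OPC marker, was last in COP wells with 8.90 CPM per kb. In CPM not divided by length Ncan was last there, with 94.3 CPM, against 106 CPM for Cspg4. In OPC wells Ptprz1 led without that division, with 3086 CPM, against 2596 CPM for Bcan.

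Between COP and OPC wells the 8 genes did not move as a block. A gene was called higher or lower when its CPM, from reads summed over the wells of a class with 1 CPM added, differed by a log2 ratio of at least 1 and reached 10 CPM in the higher class. By that rule 5 of the 8 were lower in COP wells than in OPC wells, where 22.7% of the 11445 genes compared were lower, and 1 was higher, where 10.4% were higher. The median log2 ratio of COP over OPC wells was −2.17 over the 8 genes and −0.14 over all genes compared. The membrane proteins Cspg4, Cspg5 and Ptprz1, the lectican Ncan and the matrilin Matn4 were the lower ones, Tnr was higher, and Bcan and Vcan passed neither way.

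Cspg5, a membrane proteoglycan with an EGF-like domain, had the largest fall in the pooled summed reads, although Cspg4 fell more within 613s. It had 0 to 2266 CPM in COP wells with a median of 32.1, against 0 to 4789 CPM with a median of 1560 in OPC wells. In summed reads it reached 108 CPM in COP wells and 1573 CPM in OPC wells, a log2 ratio of −3.85, and the ratio was −3.86 within set 600s_182s and −4.79 within 613s. Only 12 of 88 COP wells reached 100 CPM, against 215 of 220 OPC wells, so the classes overlapped through a small number of wells.

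Cspg4 had 0 to 1976 CPM in COP wells with a median of 19.9, against 1.07 to 5948 CPM with a median of 1031 in OPC wells. Its log2 ratio of COP over OPC wells was −3.39 (106 against 1121 CPM), with −3.22 within 600s_182s and −6.09 within 613s. The well with most Cspg4 reads supplied 23.8% of all Cspg4 reads of the COP wells, so the summed level of 106 CPM lies above that of most COP wells. Cspg4 reached 100 CPM in 19 of 88 COP wells and in 209 of 220 OPC wells.

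Ptprz1 fell less and more evenly. It had 1.48 to 4883 CPM in COP wells with a median of 443, against 312 to 8389 CPM with a median of 3002 in OPC wells, where no well was below 100 CPM. The log2 ratio of COP over OPC wells was −2.49, with the same value of −2.49 within 600s_182s and −2.47 within 613s. Ptprz1 was also the member with the smallest relative spread in OPC wells, with a coefficient of variation of 0.39, against 0.50 for Bcan and 0.87 for Matn4.

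Ncan, a lectican that is secreted and found in perineuronal nets, had a median of 21.4 CPM in COP wells, against 440.2 CPM in OPC wells, and a log2 ratio of −2.48 (94.3 against 531 CPM). Ncan reads were found in 59.1% of COP wells and 95.5% of OPC wells after each well was thinned to 50000 reads, and in 88.6% and 96.4% without thinning. The median depth was 452379.5 reads in COP wells and 263148 reads in OPC wells. Thinned shares were 39.7% in oligodendrocyte wells, 21.9% in fibroblast wells and 18.9% in vessel wells (59.0%, 44.8% and 47.2% unthinned). Matn4 had a median of 25.6 CPM in COP wells, against 604 CPM in OPC wells, and a log2 ratio of −1.85 (195 against 706 CPM). Matn4 was patchy in both classes, with 35 of 88 COP wells and 174 of 220 OPC wells at 100 CPM or more and the rest spread down to 0. Its fall was −2.01 within 600s_182s and −0.57 within 613s, where 13 COP wells stood against 26 OPC wells. In summed reads the call thus did not hold within the smaller set. The median well of 613s had 18.4 CPM in COP wells, against 465 CPM in OPC wells, and the highest COP well there had 1700 CPM. The file also counts Rbpjl, which overlaps Matn4 on the opposite strand and had 17.8% as many reads as Matn4, and the strand setting of the counting is not given in the sources used here, so the 2 genes share some uncertainty.

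Bcan did not pass either way. It had 163 to 7043 CPM in COP wells with a median of 2148, against 10.4 to 5727 CPM with a median of 2695 in OPC wells, and all 88 COP wells and 219 of 220 OPC wells reached 100 CPM. The log2 ratio of COP over OPC wells was −0.12 (2387 against 2596 CPM), with −0.23 within 600s_182s and 0.35 within 613s. The quartiles of the classes, 1383 to 3524 CPM in COP wells and 1680 to 3503 CPM in OPC wells, overlapped almost fully.

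Vcan, the largest lectican, had 0 to 1524 CPM in COP wells with a median of 308, against 0 to 3686 CPM with a median of 543 in OPC wells. Its log2 ratio of −0.88 (368 against 680 CPM) missed the rule, and it was −0.78 within 600s_182s and −1.31 within 613s. The ratio was −1.20, and passed, when wells that also pass the gate of the other stage were left out, an alternative added after the values were seen.

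Tnr ran against the other members. It had 88.8 to 3126 CPM in COP wells with a median of 1398, against 0 to 3232 CPM with a median of 673 in OPC wells. The log2 ratio was 1.03 (1519 against 745 CPM), with 1.00 within 600s_182s and 1.22 within 613s, and 60 of 88 COP wells but 62 of 220 OPC wells reached 1000 CPM. The single-well values of the classes overlapped widely, although the lower quartile in COP wells, 935 CPM, lay above the OPC median. The ratio stands at the threshold, and the call was lost under 4 alternatives at ratios between 0.92 and 0.99 listed with the processing choices. Gm38039, an antisense transcript at the Tnr locus, had 8.36% as many reads as Tnr and is uncertain in the same way as Rbpjl.

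Promoter sequence is shown for Tnr and Bcan, which were not lower in COP wells, and for Ncan and Cspg4, which were, so that the start regions of the diverging genes can be compared. Each is the 250 bases before the RefSeq transcript start, in GRCm38.p6, written 5′ to 3′ on the strand of the gene. The windows lie at chr1:159523519-159523768 on the plus strand for Tnr, chr3:88000357-88000606 on the minus strand for Bcan, chr8:70120845-70121094 on the minus strand for Ncan and chr9:56864854-56865103 on the plus strand for Cspg4. Capitals mark matches, on either strand, to 5 short words: ACAAAG and AACAAT, cores of SOX sites, CAGCTG, an E-box, CCAAT, and GGGCGG, the GC box.
Tnr: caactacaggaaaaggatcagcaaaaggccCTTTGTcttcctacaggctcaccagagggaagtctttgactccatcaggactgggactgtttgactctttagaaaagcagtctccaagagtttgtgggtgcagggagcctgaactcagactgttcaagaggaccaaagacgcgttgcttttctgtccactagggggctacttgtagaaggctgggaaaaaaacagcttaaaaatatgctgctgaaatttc
Bcan: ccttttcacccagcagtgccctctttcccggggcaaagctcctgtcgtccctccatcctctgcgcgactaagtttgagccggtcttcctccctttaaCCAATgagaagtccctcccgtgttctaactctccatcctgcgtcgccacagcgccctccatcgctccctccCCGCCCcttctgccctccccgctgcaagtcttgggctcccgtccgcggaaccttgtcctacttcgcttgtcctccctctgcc
Ncan: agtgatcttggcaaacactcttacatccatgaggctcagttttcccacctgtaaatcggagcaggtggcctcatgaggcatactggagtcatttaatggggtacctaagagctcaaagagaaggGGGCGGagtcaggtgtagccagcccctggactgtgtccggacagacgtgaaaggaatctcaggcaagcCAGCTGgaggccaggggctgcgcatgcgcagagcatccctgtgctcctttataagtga
Cspg4: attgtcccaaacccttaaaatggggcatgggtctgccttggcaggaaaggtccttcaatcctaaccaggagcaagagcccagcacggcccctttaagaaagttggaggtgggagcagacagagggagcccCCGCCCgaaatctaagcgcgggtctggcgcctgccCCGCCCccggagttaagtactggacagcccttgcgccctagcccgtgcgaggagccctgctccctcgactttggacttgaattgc 
The Tnr window held ACAAAG on the reverse strand, read as CTTTGT, 220 bases before the start, and no other searched word. Bcan held CCAAT 153 bases and a reverse GC box 82 bases before the start, Ncan a GC box at 126 bases and CAGCTG at 58, and Cspg4 reverse GC boxes at 120 and 85 bases. Over all 32851 mouse promoters in the table the words were common, with ACAAAG in 16.5%, AACAAT in 9.42%, CAGCTG in 13.0%, CCAAT in 33.8% and GGGCGG in 32.7%, so a match describes the letters and nothing about binding. GC content was 46.8% in the Tnr window, against 62.0% for Bcan, 54.4% for Ncan and 60.4% for Cspg4. The Bcan start in RefSeq lies outside the GENCODE vM21 transcripts of the gene. The last bases of the Ncan and Cspg4 windows lie inside these genes as GENCODE places them.

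In oligodendrocyte wells all 8 genes were lower than in OPC wells, where 28.7% of the 11527 genes compared were lower and 11.5% higher. The log2 ratios of oligodendrocyte over OPC wells were −5.00 for Cspg4, −4.51 for Vcan, −4.25 for Matn4 and −4.21 for Ptprz1. They were −3.99 for Tnr, −3.86 for Ncan, −3.78 for Cspg5 and −3.18 for Bcan, against a median of −0.35 over all genes compared. All 8 were also lower within each set, by other amounts. Within 600s_182s, 613s and 1025s_182s the ratios were −4.44, −4.68 and −6.06 for Cspg4 and −3.95, −4.30 and −6.53 for Vcan. For Tnr they were −2.88, −4.19 and −5.18, and for Bcan −2.64, −2.86 and −3.94. The median oligodendrocyte well held 50.0 CPM of Bcan, against 2695 CPM in the median OPC well, and 7.76 CPM of Tnr, against 673 CPM.

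Set against COP wells, 7 of the 8 genes were lower in oligodendrocyte wells, where 19.1% of 10701 genes were lower and 13.7% higher. Tnr led with a log2 ratio of −5.02 (46.0 CPM in oligodendrocyte wells, 1519 CPM in COP wells), followed by Vcan with −3.62 and Bcan with −3.06. Within 600s_182s and 613s the ratios were −3.88 and −5.41 for Tnr, −3.17 and −2.99 for Vcan, and −2.41 and −3.21 for Bcan. Cspg5, already low in COP wells, did not pass either way with 0.07 in the pooled wells. Its ratio was 0.46 within 600s_182s and 1.34 within 613s, where it passed as higher (116 against 44.9 CPM). The median wells went the other way, with 15.8 CPM in oligodendrocyte wells and 32.1 CPM in COP wells. Cspg4 (−1.62) and Ncan (−1.38) passed in the pooled wells, but within 613s their ratios were 1.41 and 0.54, so their direction turned there. In the pooled wells Cspg5 was thus lower at the first step only and Tnr, Bcan and Vcan at the second only. There Cspg4, Ptprz1, Ncan and Matn4 were lower at both. Of these, Matn4 had the larger pooled ratio at the second step (−2.40), against −1.85 at the first. Within 613s the second step was also the larger (−3.57, against −0.57). Within 600s_182s the first was the larger (−2.01, against −1.78 at the second).

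A finer order was read from wells that passed 2 stage gates, steps chosen after values had been seen. Whether such wells are stages in between or hold mixed RNA was not tested. The order is OPC wells that fail the COP gate (143 wells), OPC wells that pass it (77), COP wells that pass the OPC gate (29), COP wells that fail it (59), oligodendrocyte wells that pass the COP gate (20) and oligodendrocyte wells that pass neither earlier gate (270). The sets differ between steps: 75 of the 77 wells of the OPC step with COP markers came from 600s_182s, but 45 of the 270 at the last step did, with 86 from 1025s_182s and 139 from 613s. The medians are therefore given within 600s_182s, from 104, 75, 26, 45, 10 and 45 wells. There Cspg4 had medians of 1031, 1077, 40.3, 19.9, 18.1 and 18.3 CPM, and Cspg5 1750.0, 1597, 46.4, 32.8, 43.4 and 41.1 CPM. Both membrane proteoglycans were high in OPC wells with and without COP markers and low at each later step.

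Ptprz1 had medians of 3146, 2927, 686, 218, 60.9 and 68.0 CPM at the same steps within 600s_182s, and Ncan 467, 431, 51.1, 11.5, 11.9 and 10.5 CPM. Matn4, at 604, 568, 229, 23.5, 12.9 and 11.3 CPM, and Vcan, at 636, 528, 606, 174, 14.9 and 11.6 CPM, were higher in COP wells that passed the OPC gate than in those that failed it. Tnr, at 683, 721, 1572, 1387, 105 and 29.2 CPM, was highest in the COP wells that passed the OPC gate. Bcan, at 2720.3, 2712, 1437, 2733, 946 and 106 CPM, was lowest in them among the OPC and COP steps.

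Within this set the medians of the last 2 steps lay close together for Cspg4, Cspg5, Ptprz1, Ncan, Vcan and Matn4, while Bcan and Tnr were lower at the last step than at the one before. Over all sets the medians of the last step were lower, with 2.91 CPM for Cspg4, 10.8 for Cspg5, 21.6 for Ptprz1, 2.24 for Ncan, 1.85 for Vcan, 2.86 for Matn4, 27.7 for Bcan and 4.58 for Tnr. The 27 oligodendrocyte wells that passed the OPC gate, placed in no step, had medians of 871 CPM Ptprz1 and 1044 CPM Bcan, and the part of mixed RNA in these wells was not tested.

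**Figure D2:**
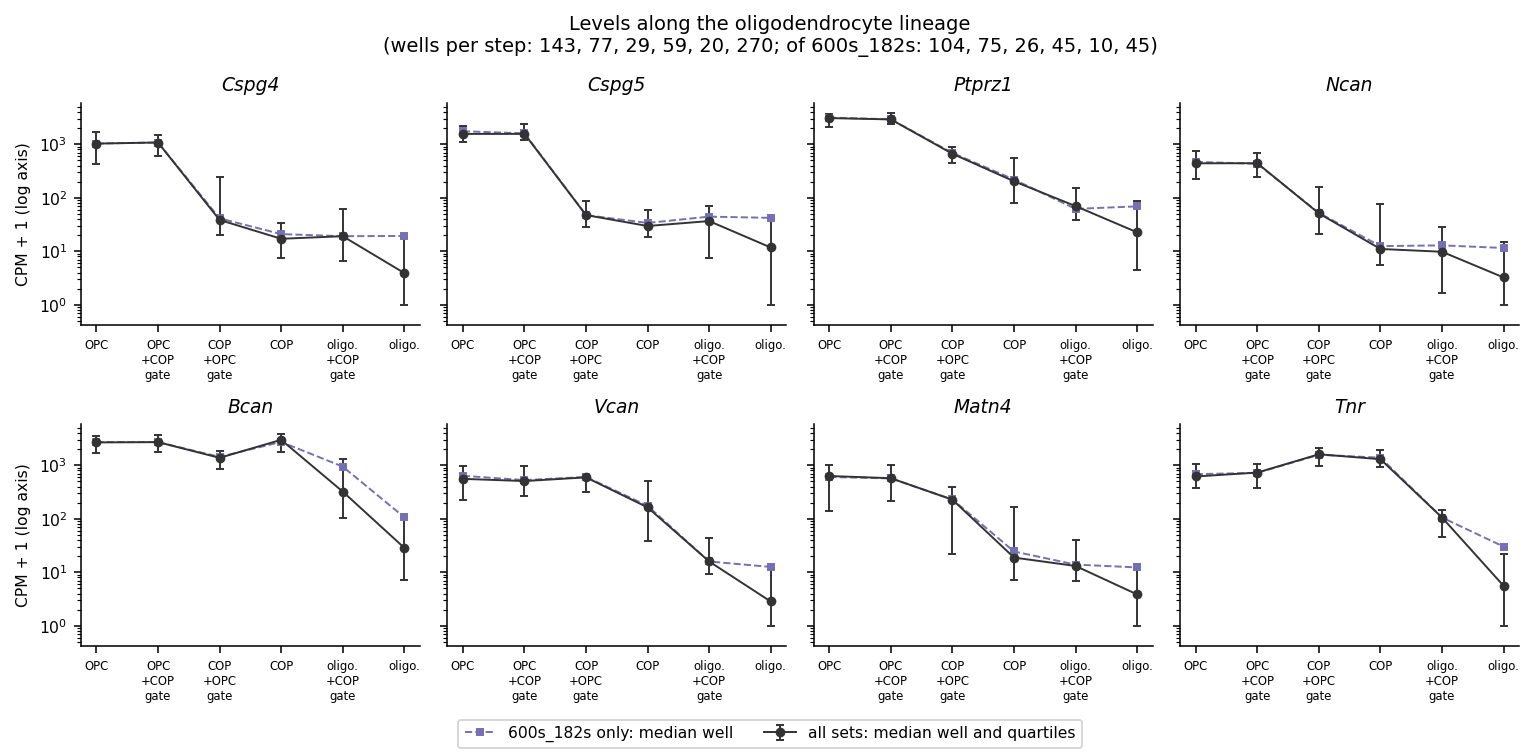
CPM + 1 on a log axis for each gene at 6 steps from OPC wells to oligodendrocyte wells, as the median well with quartiles over all sets (circles and bars, solid) and as the median well of 600s_182s (squares, dashed). Cspg4 and Cspg5 drop at the first COP step, Bcan and Tnr stay high through both COP steps, and the dashed lines of all genes but Bcan and Tnr are nearly flat over the last 2 steps, where the solid lines fall.

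Within OPC wells the genes were only weakly correlated. Within COP wells they were more strongly correlated when the sets were pooled, with a smaller difference within sets. Over the 220 OPC wells the 28 pairs of members had Pearson correlations of log2(CPM + 1) between −0.11 and 0.33, with a median of 0.10. Over the 88 COP wells they ran from −0.43 to 0.59, with a median of 0.31, led by Ptprz1 with Matn4 (0.59), Cspg4 with Ptprz1 (0.56) and Ptprz1 with Vcan (0.52), and the lowest were Bcan with Ptprz1 (−0.43) and Bcan with Vcan (−0.43). Within 600s_182s the COP range was −0.49 to 0.52, with a median of 0.18, against a median of 0.10 in OPC wells. Within 613s the medians were 0.19 in 13 COP wells and 0.14 in 26 OPC wells. The points are wells that share set, depth and amplification, and the coefficients are descriptions.

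Over all 857 kept wells, where the classes themselves are among the points, likeness was measured by the same coefficient. Lhfpl3, a gate marker of OPC, was the gene most like Cspg4 (Pearson r = 0.81), Cspg5 (0.82), Ptprz1 (0.84), Ncan (0.76) and Matn4 (0.77) among 15184 genes. Those 5 genes are the members that were low in COP wells. The genes most like Bcan were Gpr37l1 (0.84), a receptor, Neu4 (0.77), a sialidase, and Rtn1 (0.76), and those most like Vcan were Neu4 (0.81), Lhfpl3 (0.80) and Gria2 (0.77). Apart from the overlapping Gm38039 (0.85), Tnr was most like Neu4 (0.84) and Scrg1 (0.81). Neu4 was thus among the 3 most alike genes for each of the members that were not lower in COP wells, and also for Ptprz1 (0.81) and Matn4 (0.73).

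Fibroblast and vessel wells carried the genes at low levels, and OPC wells were higher for all 8 in both comparisons. Against fibroblast wells 28.0% of 12564 genes were higher in OPC wells and 21.0% lower, and against vessel wells 28.8% of 12689 genes were higher and 22.1% lower. The log2 ratios of OPC over fibroblast wells ran from 5.03 for Vcan to 6.85 for Cspg5, and those of OPC over vessel wells from 4.44 for Cspg4 to 7.51 for Cspg5. In the median fibroblast well Bcan was at 14.8 CPM and Ptprz1 at 9.94 CPM, and in the median vessel well at 11.2 and 7.57 CPM, while Ncan was at 0 in both. The values of fibroblast and vessel wells overlapped for every member.

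The low levels in fibroblast wells followed the set. In 600s_182s the fibroblast wells held 3.66% to 9.00% of the OPC level of the same set for the 8 genes. The OPC gate markers Lhfpl3, C1ql1 and Cacng4 lay in that range, at 3.89%, 4.77% and 4.21%. The gate markers Pdgfra and Sox6 were not followed by set. In 1025s_182s the members were at 0.0649% to 0.236% of the OPC level, except Cspg4 at 1.43%, while Cacng4 stood at 12.0%, C1ql1 at 0.0711% and Lhfpl3 at 0.0310%. A well of 397267 reads with 549 CPM held 218 of the 227 Cspg4 reads there, and without it Cspg4 was at 0.0584%. Ptprz1, at 0.236%, was at 0.0926% without its top well. In 613s Lhfpl3 was at 0.402%, C1ql1 at 0.438% and Cacng4 at 2.97%. The members were at 0.489% to 0.961% there, except Cspg4 at 2.61%, Bcan at 2.21% and Vcan at 5.05%. Single wells gave much of these reads. Without the well of 605 CPM Cspg4 was at 0.806%, without a well of 53265 reads with 4055 CPM Bcan was at 1.17%, and without a well of 1321639 reads with 294 CPM Vcan was at 0.545%. Leaving out top wells was an alternative added after the values were seen. The well with most Vcan also gave 70.0% of all Vcan reads of fibroblast wells, which had 6.22 CPM without it and 19.8 CPM with it. Among the 56 fibroblast wells with markers of no other lineage the ratios of OPC over fibroblast wells ran from 4.80 to 7.98, and the part of stray OPC RNA in the levels was not tested.

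**Figure D3:**
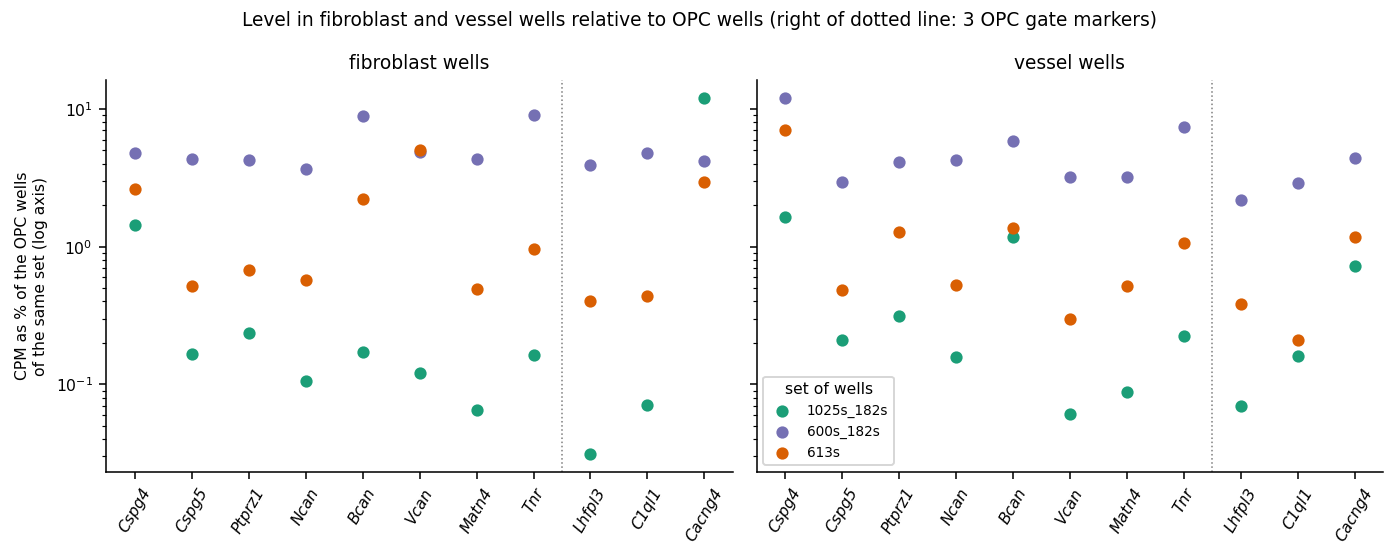
Level of each gene in fibroblast wells and vessel wells as a percent of its level in OPC wells of the same set, on a log axis, with 3 OPC gate markers right of the dotted line. The fibroblast points of 600s_182s lie together at 3.66% to 9.00%, and Cspg4 in vessel wells lies at 1.65% to 12.0% in the 3 sets, values that include the wells with most Cspg4.

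In vessel wells Cspg4 had the highest level relative to OPC wells in each set, but this did not hold in 600s_182s without its top 2 wells, and it held only narrowly in wells with no second lineage. It had 50.6 CPM in vessel wells (95% Poisson interval 47.6 to 53.8 CPM, counting error only), which was 1.65%, 12.0% and 7.03% of the OPC level in 1025s_182s, 600s_182s and 613s. The other members of those wells were at 1.17% or less, 7.44% or less and 1.37% or less. The 12.0% comes from 6 wells, and without the 2 wells of most Cspg4, which also carried OPC markers, it was 3.80%, below Bcan (4.81%) and Tnr (5.72%) with their own top 2 wells left out. With the same step Cspg4 was at 0.986% in 1025s_182s and 4.14% in 613s, where the other members were at 0.938% or less. In the 20 vessel wells with markers of no second lineage Cspg4 had 9.46 CPM, or 0.850% of the level in such OPC wells, beside 0.841% for Ptprz1. Of the 8 vessel wells at 100 CPM or more of Cspg4, 4 had all 7 other members below 100 CPM, and a further well had 315 CPM of Bcan.

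Among vessel wells, those with at least 3 mural markers were set against those with fewer, and 2 of the 8 members were higher, where 19.0% of 11371 genes were higher and 17.7% lower. Cspg4 had 77.7 CPM in the 25 wells with mural markers and 23.1 CPM in the 28 without, a log2 ratio of 1.71, with 1.67 within 1025s_182s and 1.85 within 613s. Single wells ran from 0 to 688 CPM with a median of 21.5 in wells with mural markers, against 0 to 549 CPM with a median of 4.02 in those without, so the groups overlapped. Bcan had 57.6 CPM in wells with mural markers and 21.8 CPM in those without (log2 ratio 1.36), but this turned to −1.18 with a marker minimum of 20 CPM and did not pass at 200 CPM (0.90), with the mean of well CPM (0.47) or without 1025s_182s (0.66). Both groups also pass the gates of other lineages in 19 and 14 wells, and among the 6 and 14 vessel wells with no second lineage the ratio of Cspg4 was 0.89 and no longer passed.

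The highest Cspg4 wells were of unlike kinds. The top vessel wells, at 688 and 549 CPM, both came from 600s_182s, passed the OPC-lineage and fibroblast gates too, and had 3 OPC markers. They also had 5 and 2 mural markers. The next, at 405, 259 and 148 CPM, came from 613s, had 5 mural markers and no OPC marker, and held 18.9, 138 and 0.865 CPM of Ptprz1. Each of them also passed the microglia gate, and those at 259 and 148 CPM the astrocyte gate too. Among fibroblast wells the highest had 605 CPM of Cspg4 with 22.4 CPM of Ptprz1 and no Bcan read. The next had 549 CPM with all 7 other members at 0 and 2595 CPM of Pdgfrb, a receptor of mural cells and fibroblasts. This fibroblast well also passed the vessel gate, with 3 mural markers and 687 CPM of the mural gate marker Rgs5.

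**Figure D4:**
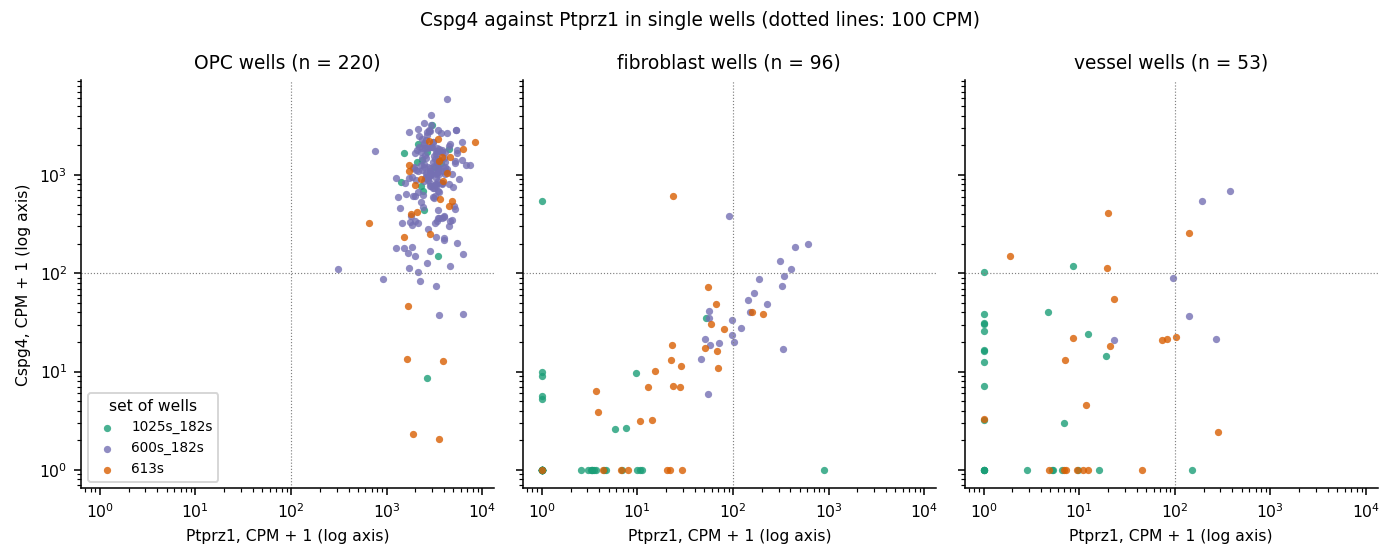
Cspg4 against Ptprz1 in single wells of OPC, fibroblast and vessel classes, as CPM + 1 on log axes with dotted lines at 100 CPM and colours for sets of wells. OPC wells lie at the upper right, most fibroblast wells of 600s_182s lie along a diagonal, and 5 of the 8 vessel wells above 100 CPM of Cspg4, with the fibroblast wells at 605 and 549 CPM, have Ptprz1 below 100 CPM.

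No member was called between cycling and other OPC wells, although all 8 had lower summed levels in the cycling wells. The median log2 ratio of cycling over other OPC wells was −0.51 over the 8 genes and −0.06 over all genes compared. In the 16 OPC wells with at least 3 cell-cycle markers the members had log2 ratios over the 204 other OPC wells between −0.79 and −0.25, and 0 of the 8 passed, where 15.9% of 11665 genes were higher and 23.5% lower. All 16 cycling wells had at least 6 of the 8 genes at 100 CPM.

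Other genes of the same matrix changed with the stages in both directions. They were taken from lists chosen by gene name, with earlier results of these data known. Among the link proteins, which lock lecticans onto hyaluronan, and the lectican aggrecan, 2 of the 3 genes reaching 10 CPM were lower in COP wells than in OPC wells, beside 22.7% of all genes compared. Hapln3 had 0.388 CPM in COP wells and 29.6 CPM in OPC wells (log2 ratio −4.46). Acan did not pass between them, with 56.3 CPM in COP wells and 70.8 CPM in OPC wells, and had 1.32 CPM in oligodendrocyte wells. Hapln2, the link protein of nodes of Ranvier, had 230 CPM in oligodendrocyte wells and 5.27 CPM in OPC wells.

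Enzymes that build and sulphate the chondroitin chain split between COP and OPC wells. Of 20 at 10 CPM or more, 4 were higher and 7 lower in COP wells, beside 10.4% and 22.7% of all genes. The sulphotransferases Chst11 and Chst7 had log2 ratios of −3.44 and −3.40, Xylt1, which attaches the first sugar, had −3.02, and Csgalnact1, which starts the chain, had 2.60 (131 CPM in COP wells, 20.7 CPM in OPC wells). In oligodendrocyte wells 15 of the 20 were lower and 1 higher than in OPC wells, beside 28.7% and 11.5% of all genes, with a median log2 ratio of −1.60, against −0.35 over all genes compared.

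Of the other matrilins and tenascins, both genes reaching 10 CPM were higher in COP wells than in OPC wells, where 10.4% of all genes were, unlike Matn4. Matn1 had 131 CPM in COP wells and 9.41 CPM in OPC wells, and Matn2 had 129 and 41.6 CPM. Matn2 was highest in fibroblast wells with 512 CPM, and Tnxb, the tenascin of connective tissue, had 0.654 CPM in OPC wells and 53.4 CPM in fibroblast wells. Adamts4, a protease that cuts brevican, had 391 CPM in COP wells and 13.2 CPM in OPC wells (log2 ratio 4.78) and 467 CPM in oligodendrocyte wells, while Adamts1, of the same family, had 4.01 CPM in COP wells and 93.6 CPM in OPC wells.

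Among hyaluronan genes, 2 of 6 were higher and 1 lower in COP wells (10.4% and 22.7% of all genes), led by Tmem2, a hyaluronidase of the cell surface, with 219 CPM in COP wells and 9.66 CPM in OPC wells. Cd44, a hyaluronan receptor, was highest in fibroblast wells with 75.7 CPM. Of the heparan sulphate proteoglycans of the cell surface 4 of 5 were lower in COP wells, beside 22.7% of all genes, with log2 ratios of −4.02 for Gpc5 and −4.33 for Gpc6. Of 8 partners, 1 was higher and 4 were lower (10.4% and 22.7% of all genes), and Cntn1, a ligand of Ptprz1 and Tnr, had 602 CPM in COP wells and 1759 CPM in OPC wells (log2 ratio −1.55).

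Coordinates follow GENCODE vM21 on GRCm38, and each gene body spans many exons. Cspg4 lies at chr9:56865033-56899870 and Cspg5 at chr9:110243783-110262576, both on the plus strand, with Ptprz1 at chr6:22875502-23052916 and Tnr at chr1:159523769-159931729 on the same strand. Ncan at chr8:70093085-70120873, Bcan at chr3:87987531-88000230, Vcan at chr13:89655312-89742509 and Matn4 at chr2:164389393-164405160 lie on the minus strand. Annotated exons cover 4064 bases for Bcan and 14462 bases for Vcan, the shortest and the longest of the 8.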

How the data were processed

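The deposited table holds whole-number read counts per gene, not normalized by the authors. Per the submitters' processing notes the tools were featureCounts (Subread 1.4.6-p5), TopHat2 2.1.1 and SAMtools 0.1.18, with GRCm38 (mm10). Annotation, strand setting and handling of multiply matching reads: not given in the sources used here. The 1152 wells could not be matched to the numbered labels and form 1 sample. Wells with at least 50000 reads were kept and counts scaled by the well total to CPM. No 2 wells held identical counts. Classes were compared by CPM of summed counts with 1 CPM added, because no replicate allows a count model. The script was tested on simulated counts. RNA amplified without molecular identifiers is not counted as independent molecules, so Poisson and exact binomial intervals (95%) cover counting error only.

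The genes, lists and gates were chosen with earlier results of these data known. Named besides the 8 genes were, for each, the 3 most correlated genes, and up to 4 genes of each list with the largest log2 ratio. Promoters came from RefSeq for 7 of the 8 genes and coordinates from GENCODE vM21, which held 42052 of the 46517 symbols. Alternatives varied the read and marker minimum, gate rule, mixed wells, sets, added CPM, averaging, mitochondrial genes and scaling with edgeR 4.0.16 and DESeq2 1.42.0 factors. Python 3.11.15, numpy 2.4.6, pandas 2.3.3, scipy 1.17.1 and R 4.3.3 were used.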

Additional observations from a re-analysis of the deposited data

How the results depend on the processing

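Of 912 values of the 8 genes under alternatives, 19 calls changed and 1 reversed. OPC wells stayed higher for all 8 genes than fibroblast and vessel wells, and oligodendrocyte wells lower for all 8 than OPC wells, under every alternative run. TMM and DESeq2 factors changed 0 calls, although TMM moved the median of all genes in oligodendrocyte over OPC wells to −0.03, against −0.35. The number of members higher in COP than in OPC wells was 0, not 1, with a marker minimum of 200 CPM, with the mean of well CPM, without set 613s and with wells passing the gate of the other stage left out, an alternative added after seeing the data, because Tnr was at 0.97, 0.92, 0.99 and 0.98. Vcan passed as lower in COP wells with sets weighted equally (−1.03) and without set 600s_182s (−1.44). With wells of the other stage left out, 1 member, Cspg5 (1.13), was higher in oligodendrocyte than in COP wells. Cspg4 and Ncan lost that call with sets weighted equally (−0.64 and −0.58), Cspg4 without set 600s_182s (−0.26) and Ncan without set 1025s_182s (−0.97). In wells with mural markers over those without, 1 member was higher at a marker minimum of 20 CPM, where 2 were lower (Bcan −1.18, Tnr −1.59), and 1 at 200 CPM, with the mean of well CPM and without set 1025s_182s, where Bcan was at 0.90, 0.47 and 0.66. Leaving out the well, or the 2 wells, with most reads of a gene, an alternative added after seeing the data, moved 45 of 96 levels in fibroblast and vessel wells given as a percent of OPC wells. With wells of a second lineage left out, Ptprz1 reached 2.93 there and Cspg4 0.89. The cause of these changes was not tested. The cycling comparison without set 600s_182s had fewer than 5 cycling wells and was not run. No paired analysis was possible because the labels give no groups or replicate numbers for the wells.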

Other observations

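The 19 astrocyte wells, a class that took no part in the comparisons above, had 1627 CPM of Bcan and 1445 CPM of Ptprz1 in summed reads. Bcan ran from 0 to 6401 CPM over single wells with a median of 340 CPM, and Ptprz1 from 0 to 4526 CPM with a median of 120 CPM. A single well supplied 70.4% of the Ptprz1 reads, 73.0% of the Cspg4 reads and 72.1% of the Matn4 reads of the class, so those sums describe that well. The 5 oligodendrocyte markers summed to 6361 CPM in the class, beside 6992 CPM for the 5 astrocyte markers.

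Single members were very high in a few oligodendrocyte wells, shallow and deep. Bcan reached 17901 CPM in a well of 58991 reads that held 424 CPM of Cspg5 and 0 of Cspg4, and 7441 CPM in a well of 82781 reads. It was also at 5319.5 CPM in a well of 485384 reads with Cspg4, Cspg5, Ptprz1 and Ncan at 0, and at 6229 CPM in a well of 199072 reads. Cspg5 reached 6723 CPM in a well of 86566 reads with 69.3 CPM of Bcan, and 5616 and 5269 CPM in wells of 53242 and 55415 reads. The microglia well with most Cspg4, at 810 CPM, also had 556 CPM of Vcan, 724 CPM of Pdgfrb and 5 mural markers, and passed the vessel and fibroblast gates.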
